A study of Gallus gallus with 8 samples.

Results

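The genes described here build and maintain the motile cilium, together with relatives that share their name prefixes. They were chosen by symbol alone: a gene of the deposited mRNA count table was taken if its symbol began with DNAH, DNAI, DNAL, DNAAF, RSPH, TEKT, SPAG or BBS, or with IFT and a digit. 57 of 26296 genes met this rule, and they fall into 10 classes by role. The series examined the trachea of chickens (Gallus gallus) at 42 days of age. Birds of the H2S group lived in chambers into which hydrogen sulfide gas was metered throughout, held at 3.5 to 4.5 mg/kg over weeks 0 to 3, then at 19.5 to 20.5 mg/kg over weeks 4 to 6, while control birds lived in a chamber without added gas. For mRNA, 1 H2S library and 1 control library were analysed, both numbered 3, so no difference between them has a replicate check and no test between conditions was made. Small RNA was counted in 3 H2S and 3 control libraries, and the labels leave unsaid whether each library of a group stands for a bird of its own.

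Motile cilia beat because dynein motors, set along the outer microtubules of the axoneme as outer and inner arms, slide these microtubules against each other. Dynein arms are put together in the cytoplasm by assembly factors and carried into the cilium by intraflagellar transport (IFT) trains. Radial spokes and the central apparatus govern the arms, and tektins strengthen the microtubules from inside. In the airway these cilia sit on multiciliated epithelial cells and move mucus. The BBSome, a coat complex that works with IFT, is also at home in primary cilia.

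The mRNA totals were 20839798 counts in the H2S library against 18875586 counts in the control library. Counts of the 57 genes summed to 70096 in the H2S library against 77536 in the control library, or 0.336% and 0.411% of the totals. FOXJ1, the master transcription factor of motile ciliogenesis, had 2573 counts in the H2S library against 2772 in the control library. HYDIN, a central apparatus protein, had 4005 and 4262, H2S library first, so these 2 ciliary genes were well covered. Not every such gene was: CCNO, a regulator of multiciliation, had 43 counts in the H2S library against 24 in the control library. COL2A1, the main collagen of cartilage, and EPCAM, an epithelial adhesion molecule, were also abundant, at 198018 and 7034 counts in the H2S library against 165713 and 8058 in the control library. Ratios below are H2S over control, from counts scaled by edgeR's TMM method (trimmed mean of M-values), with 95% exact intervals that cover counting error only. A gene was called measured if it had at least 20 counts in 1 library, which 53 of the 57 genes did.

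Most dynein, transport and axoneme genes had slightly lower levels in the H2S library. Of the 53 measured genes, 44 had a ratio below 1 (83.0%), where 50.1% of all 15268 measured genes did. The median log2 ratio was -0.20, beside -0.00066 over all measured genes. At least 1.2-fold lower were 21 genes (39.6%, against 23.6% of all measured genes), and at least 1.2-fold higher were 3 (5.66%, against 24.5%). Beyond 1.5-fold, 4 genes were lower, a share near the background (7.55%, against 9.31%). Higher by that much was 1 gene, a share below the background (1.89%, against 10.6%). None was 2-fold lower, where 3.71% of all measured genes were, and DNAH8 alone was 2-fold higher, where 4.71% were. The counting interval lay wholly below 1 for 29 genes (54.7%, against 27.7%) and wholly above 1 for 5 (9.43%, against 27.6%). Where 1 library held 100 counts or more, 42 of 48 lay below 1 (87.5%, against 50.4%) and 20 were at least 1.2-fold lower (41.7%, against 20.6%). In bulk tissue, fewer ciliated cells and less of each RNA per cell cannot be told apart. With 1 chamber-reared library on each side, exposure and any other difference between the libraries cannot be told apart either.

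**Figure D1:**
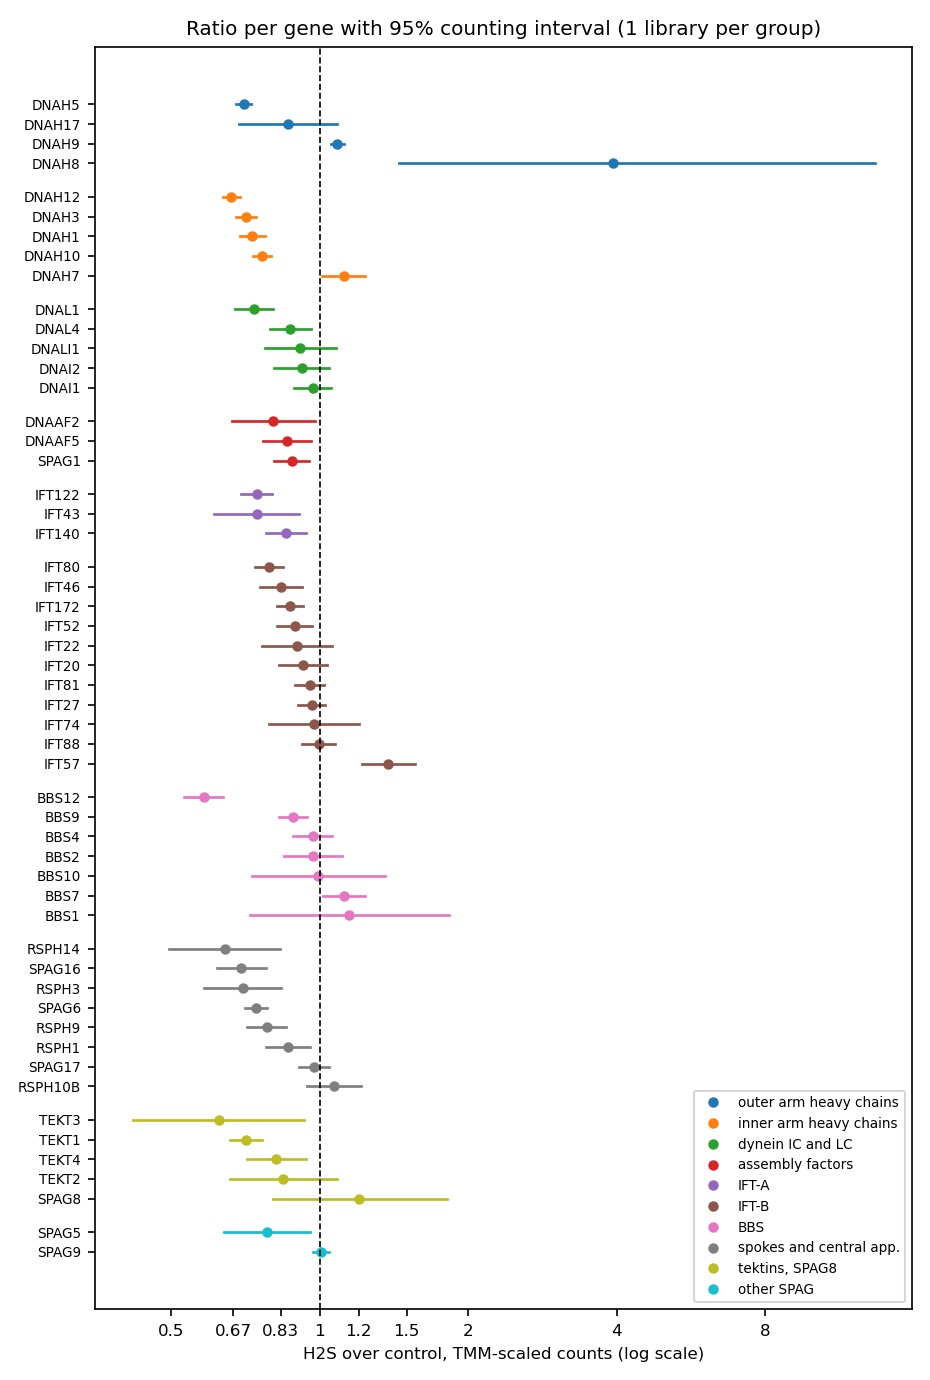
Each point is the ratio of TMM-scaled counts, H2S over control, of 1 measured gene on a log axis, with its 95% counting interval as a line and its class as a colour. Most points lie left of the dashed line at 1, down to 0.581 for BBS12, while IFT57 at 1.38 and the thinly counted DNAH8 at 3.94 stand to the right.

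The outer arm heavy chains, the motors that provide most of the beating force, did not move together. DNAH5, a heavy chain whose loss causes primary ciliary dyskinesia in humans, had 5324 counts in the H2S library against 7125 in the control library, a ratio of 0.701 (0.676 to 0.726). DNAH9, which in human airway cilia lies in the distal part of the axoneme, had 10006 counts in the H2S library against 8646 in the control library, a ratio of 1.09 (1.05 to 1.12). DNAH5 was thus lower and DNAH9 slightly higher in the H2S library. As a description of this pair, chosen for its difference, the DNAH9 to DNAH5 count ratio within a library was 1.88 (1.82 to 1.94) in the H2S library, against 1.21 (1.18 to 1.25) in the control library. The summed ratio of the class, 0.912 (0.892 to 0.933), was 0.707 (0.682 to 0.732) without DNAH9. DNAH17, known as a sperm dynein in mammals, had 148 counts in the H2S library against 161 in the control library (ratio 0.862, 0.685 to 1.08). DNAH8, another sperm heavy chain in mammals and a close relative of DNAH5, had 21 and 5 counts, a ratio of 3.94 (1.45 to 13.4), and passed the minimum through the H2S library alone. A further heavy chain gene, LOC428510, carries the symbol DNAH5L in the RefSeq table of the GRCg7b assembly and lies outside the naming rule. It had 7906 counts in the H2S library against 9172 in the control library, a ratio of 0.808 (0.784 to 0.833). How the authors' counting divided reads between such similar heavy chain genes is not given in the sources used here, so their single values are uncertain to that extent.

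Inner arm heavy chains, which shape the waveform of the beat, had the lowest summed ratio of the 10 classes, 0.727 (0.712 to 0.744). This interval overlaps those of the tektins and of IFT-A. Of the 5 measured members, 4 lay below 1 (80%, against 50.1% of all measured genes). DNAH12 was lowest, with 4187 counts in the H2S library against 5942 in the control library (ratio 0.661, 0.635 to 0.688). DNAH3 had 3104 and 4117 counts (0.707, 0.675 to 0.741), DNAH1 had 1944 and 2497 (0.730, 0.688 to 0.775) and DNAH10 had 4060 and 4982 (0.764, 0.733 to 0.797), H2S library first in each. DNAH7 went the other way, with 883 counts in the H2S library against 741 in the control library (1.12, 1.01 to 1.23). Like DNAH3 and DNAH12, DNAH7 belongs to the single-headed inner arm dyneins. DNAH14 had 1 count in the H2S library against 6 in the control library and was not measured.

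Within all DNAH counts of a library, 29678 in the H2S and 34222 in the control library, the make-up differed beyond counting error. These totals leave out LOC428510 (DNAH5L), which had 7906 counts in the H2S library against 9172 in the control library. DNAH2, DNAH6 and DNAH11 have no entry under those symbols, so the shares do not cover every heavy chain. DNAH9 took 33.7% (33.2% to 34.3%) in the H2S library, against 25.3% (24.8% to 25.7%) in the control library. DNAH7 took 2.98% (2.78% to 3.17%) in the H2S and 2.17% (2.01% to 2.33%) in the control library. DNAH5 took 17.9% in the H2S and 20.8% in the control library, and DNAH12 14.1% and 17.4%. These shares depend on no scaling between libraries. They are parts of 1 whole, so the larger DNAH9 share by itself makes the other shares smaller. Differences beyond counting error were common between these 2 libraries: the interval lay wholly below 1 for 27.7% of all measured genes and wholly above 1 for 27.6%. The unknown division of reads between similar heavy chain genes bears on the shares too.

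**Figure D2:**
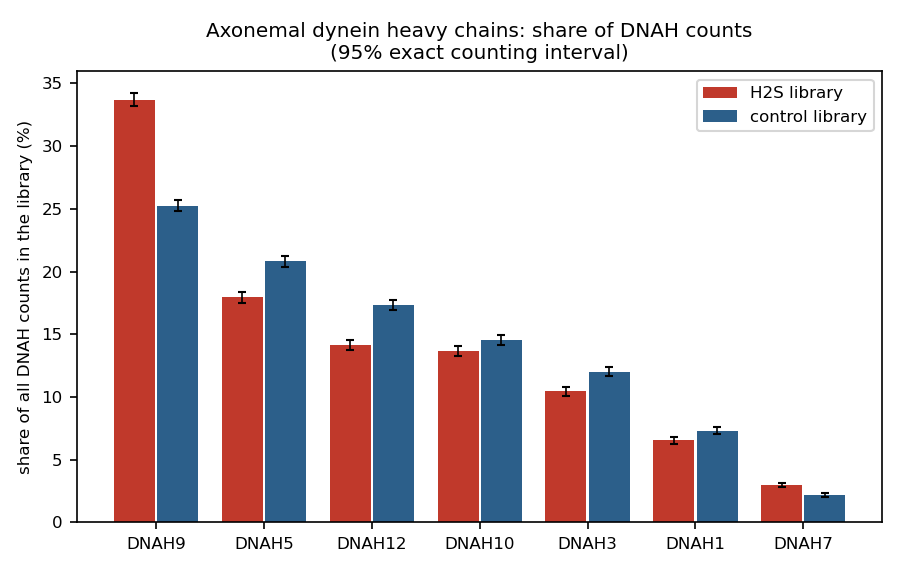
Bars give the share of all DNAH counts in a library taken by each heavy chain with over 1% of them, for the H2S library (left) and the control library (right), with 95% exact counting intervals. LOC428510 (DNAH5L) is not part of these counts, and DNAH2, DNAH6 and DNAH11 have no entry under those symbols. DNAH9 takes 33.7% in the H2S library, against 25.3% in the control library, while DNAH5, DNAH12, DNAH10, DNAH3 and DNAH1 take smaller shares in the H2S library. The larger DNAH9 share by itself makes the other shares smaller.

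The smaller subunits of the dynein arms were close to 1 or below. All 5 measured intermediate and light chains lay below 1 (50.1% of all measured genes did), with a summed ratio of 0.866 (0.827 to 0.907). DNAI1 and DNAI2, the intermediate chains that tie the outer arm together, had 1046 and 473 counts in the H2S library against 1014 and 483 in the control library. Their ratios of 0.967 (0.887 to 1.06) and 0.918 (0.807 to 1.04) had intervals that hold 1. DNAL1, a light chain that binds the DNAH5 motor in humans, was lower, with 887 counts in the H2S library against 1131 in the control library (0.736, 0.673 to 0.804). DNAL4 had 843 counts in the H2S and 907 in the control library (0.872, 0.793 to 0.958). DNALI1, an inner arm light chain, had 289 and 297 (0.913, 0.773 to 1.08), H2S library first. DNAL1 thus lay near DNAH5, as did members of other classes, among them DNAH3 at 0.707 and TEKT1 at 0.709. The intermediate chains lay between DNAH5 and DNAH9, as did the quartiles of all measured members, 0.745 and 0.968. WDR63 and WDR78, now called DNAI3 and DNAI4, fall outside the naming rule and had ratios of 0.598 (0.535 to 0.669) and 0.806 (0.698 to 0.930).

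The 3 measured assembly factors varied little among themselves, with ratios of 0.805 to 0.876 and a summed ratio of 0.863 (0.810 to 0.919). DNAAF2, a co-chaperone partner of HSP90, had 200 counts in the H2S library against 233 in the control library. DNAAF5, a HEAT-repeat protein, had 603 and 658, and SPAG1, which binds chaperones through its TPR repeats, had 1097 and 1174, H2S library first. Each of the 3 intervals ended below 1 (27.7% of all measured genes had such an interval), the nearest at 0.977 for DNAAF2. Assembly factors that the table lists under other names spread more widely. DYX1C1 (DNAAF4) had a ratio of 0.997 (0.798 to 1.25), WDR92 (DNAAF10) one of 0.772 (0.676 to 0.880) and LOC100858336, which RefSeq names DNAAF8, one of 0.640 (0.565 to 0.724). PIH1D3, another co-chaperone, had 153 counts in the H2S library against 275 in the control library, a ratio of 0.522 (0.425 to 0.638). At the other end, PIH1D2 had 208 counts in the H2S library against 166 in the control library. Its ratio of 1.18 (0.954 to 1.45) had an interval that holds 1.

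**Figure D3:**
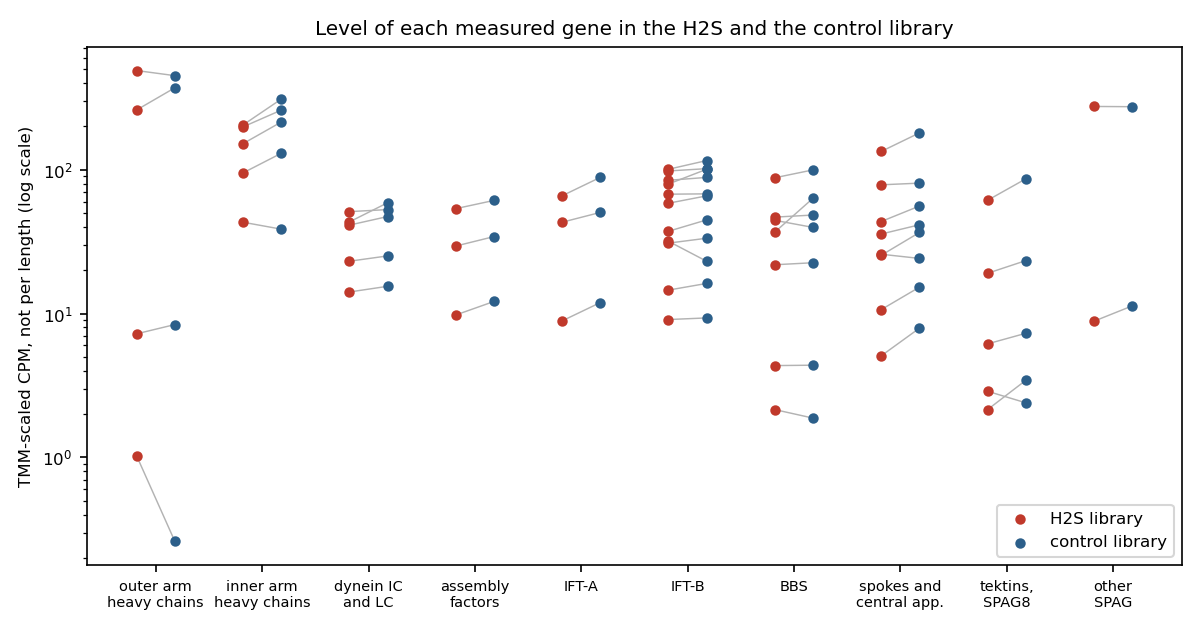
Each measured gene is drawn by its TMM-scaled CPM on a log axis in the H2S library (left point) and the control library (right point) of its class, joined by a line. Most lines slope upward to the control library, and the steps are small beside the spread of levels within a class, from 1.03 to 489 CPM among outer arm heavy chains in the H2S library. The values are not divided by gene length, so levels of different genes are not compared.

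Of the transport genes, 18 of 21 lay below 1 (85.7%, against 50.1% of all measured genes), and their summed ratio was 0.887 (0.870 to 0.905). The IFT-A complex, which drives return transport toward the cell body, was lower in the H2S library in all 3 measured subunits: IFT122, a core subunit, had 1348 counts in the H2S library against 1699 in the control library (0.744, 0.692 to 0.800). IFT43 had 182 and 229 counts (0.745, 0.610 to 0.909) and IFT140 had 883 and 969 (0.855, 0.779 to 0.937), H2S library first. The 3 intervals all ended below 1 (27.7% of all measured genes had such an interval), and the summed ratio was 0.781 (0.740 to 0.825). The remaining IFT-A subunits, which the table lists under other names, were mixed: WDR35 was at 0.708 (0.639 to 0.784), TTC21B at 1.05 (0.982 to 1.12) and WDR19 at 1.18 (1.08 to 1.297). The low values of the 3 prefix-named subunits therefore did not extend to the whole complex.

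IFT-B, which carries cargo outward to the tip, had 10 of 11 measured subunits below 1 (90.9%, against 50.1% of all measured genes), most by little. Its summed ratio was 0.918 (0.895 to 0.941). The lowest were IFT80 with 1628 counts in the H2S library against 1934 in the control library (0.789, 0.739 to 0.844), IFT46 with 764 against 860 (0.833, 0.755 to 0.919) and IFT172 with 2061 against 2223 (0.869, 0.819 to 0.924). IFT52, a core subunit, had 1197 counts in the H2S library against 1263 in the control library (0.889, 0.821 to 0.963). IFT74 and IFT81, which together bind tubulin, had ratios of 0.975 and 0.954. IFT88, a core subunit, had 1383 counts in the H2S and 1304 in the control library, a ratio of 0.995 (0.922 to 1.07). IFT27, a small GTPase that links IFT to the BBSome, was at 0.964 (0.905 to 1.03), IFT22 at 0.899 and IFT20, which also serves at the Golgi, at 0.925 (0.827 to 1.03). The intervals of these 6 subunits, IFT20, IFT22, IFT27, IFT74, IFT81 and IFT88, held 1.

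IFT57, a peripheral IFT-B subunit, stood apart with 651 counts in the H2S library against 443 in the control library, a ratio of 1.38 (1.22 to 1.56). Counted within a library against IFT80, the IFT-B subunit chosen for its lowest ratio, it stood at 0.3999 (0.365 to 0.438) in the H2S library, against 0.229 (0.206 to 0.254) in the control library. IFT-B subunits under other names included some of lower ratio, HSPB11 (IFT25) at 0.586 (0.452 to 0.757), TTC30A (an IFT70 protein) at 0.664 and TTC26 (IFT56) at 0.678. TRAF3IP1 (IFT54) was at 0.906 (0.817 to 1.01) and CLUAP1 (IFT38) at 1.02 (0.860 to 1.22). Of the motors, DYNC2H1, the heavy chain of the dynein that powers return transport, had 4335 counts in the H2S library against 5260 in the control library (0.773, 0.742 to 0.805). KIF3A and KIF3B, the paired kinesin subunits of outward transport, were at 0.865 (0.795 to 0.942) and 1.01 (0.931 to 1.09).

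BBS12 had the lowest ratio of all 53 measured genes. It encodes a chaperonin-like protein that helps assemble the BBSome, and it had 754 counts in the H2S library against 1217 in the control library, a ratio of 0.581 (0.530 to 0.637). The other chaperonin-like members did not share this: BBS10 had 89 and 84 counts (0.994, 0.729 to 1.36), and MKKS, listed outside the prefixes, had 1261 and 1335 (0.886, 0.820 to 0.957), H2S library first. Among BBSome subunits, BBS9 had 1799 counts in the H2S and 1914 in the control library (0.881, 0.826 to 0.941). BBS4 and BBS2 were at 0.967 and 0.968 with intervals that hold 1. BBS7 had 910 counts in the H2S library against 762 in the control library (1.12, 1.02 to 1.23), and BBS1, with 44 and 36 counts, had an interval of 0.721 to 1.83 around 1.15. TTC8 (BBS8), under its other name, had 596 counts in the H2S and 415 in the control library (1.35, 1.19 to 1.53). For BBS7 and BBS12, again a pair chosen for its difference, BBS7 counts within a library were 1.21 times (1.09 to 1.33) those of BBS12 in the H2S library, against 0.626 times (0.571 to 0.686) in the control library.

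Radial spoke and central apparatus genes were lower in the H2S library for the most part, with a summed ratio of 0.811 (0.786 to 0.837). Of 8 measured members, 7 lay below 1 (87.5%, against 50.1% of all measured genes). At least 1.2-fold lower were 5 (62.5%, against 23.6%). RSPH14 had 104 counts in the H2S library against 152 in the control library (0.642, 0.495 to 0.829), and RSPH3, a spoke stalk protein, had 218 against 293 (0.698, 0.583 to 0.834). RSPH9 and RSPH1, which lie in the spoke head, had 893 and 731 counts in the H2S library against 1073 and 795 in the control library. Their ratios were 0.781 (0.713 to 0.854) and 0.862 (0.779 to 0.955). RSPH10B was the exception at 1.07 (0.942 to 1.21), with 529 counts in the H2S and 464 in the control library. RSPH4A, a spoke head protein needed for normal airway cilia in humans, had 2 counts in the H2S library against 6 in the control library. RSPH4A is also 1 of 4 members with no symbol match in the GRCg7b table, beside BBS1, SPAG4 and TEKT4. Whether its reads were counted under another identifier was not tested, so the low counts may not give its level.

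Of the central apparatus members, SPAG6 and SPAG16 were lower and SPAG17 was near 1. SPAG6 had 2741 counts in the H2S library against 3461 in the control library (0.743, 0.706 to 0.781). SPAG16 had 520 and 703 (0.694, 0.618 to 0.778), and SPAG17 had 1607 and 1548 (0.974, 0.907 to 1.04), H2S library first. HYDIN, which shares the central apparatus with SPAG17, lay at 0.881 (0.844 to 0.920).

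Tektins had a summed ratio of 0.745 (0.7004 to 0.792) with SPAG8, another protein inside the ciliary microtubules, and this value leaned on TEKT1, without which it was 0.829 (0.743 to 0.925). TEKT1 had 1254 counts in the H2S library against 1659 in the control library (0.709, 0.658 to 0.763). TEKT4 had 390 against 448 (0.816, 0.711 to 0.937) and TEKT2 had 126 against 140 (0.844, 0.658 to 1.08). TEKT3, with 44 against 66 counts, had a ratio of 0.625 (0.417 to 0.929), and SPAG8, with 59 against 46, one of 1.203 (0.804 to 1.81). TEKT5 had 2 counts in the H2S library against 6 in the control library.

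The SPAG prefix also takes in genes that are no axoneme proteins. SPAG9, a scaffold for motor and kinase signalling that many cell types express, had 5632 counts in the H2S library against 5261 in the control library, a ratio of 1.004 (0.967 to 1.04). SPAG5, a mitotic spindle protein, had 181 and 217 counts (0.782, 0.639 to 0.957), H2S library first. SPAG4 had 0 counts in both libraries, which allows up to 0.146 CPM in the H2S library, and up to 0.156 CPM in the control library at a floor of 3 counts. Without these 3 genes, 43 of 51 measured members lay below 1 (84.3%, against 50.1% of all measured genes). The summed ratio moved from 0.848 (0.839 to 0.857) to 0.837 (0.828 to 0.846).

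Cilium genes outside the prefixes were also mostly below 1, though not in every list. In 6 lists of axoneme, docking, regulatory, assembly and transport genes under other symbols, 66 of 87 measured genes lay below 1 (75.9%, against 50.1% of all measured genes), and the median log2 ratio was -0.18. In the nexin-dynein regulatory complex, which links neighbouring microtubules, 8 of 10 lay below 1, from LRRC48 at 0.634 (0.526 to 0.762) to GAS8 at 1.10 (0.941 to 1.29). Of the BBS genes under other symbols 1 of 4 lay below 1, with a summed ratio of 0.998 (0.944 to 1.06) and a median log2 ratio of 0.05. Outer arm docking proteins diverged, with 1 of 3 below 1: ARMC4 was at 0.721 (0.674 to 0.771) and TTC25 at 1.25 (1.11 to 1.402). In the broad axoneme list, 35 of 44 genes lay below 1, and those with at least 100 counts ran from WDR66, a spoke-linked protein also called CFAP251, at 0.408 (0.361 to 0.461) to LRRIQ1 at 1.36 (1.29 to 1.44).

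Regulators of multiciliation went both ways, more of them below 1 than above. FOXJ1 was at 0.871 (0.825 to 0.919), RFX3 at 0.714 (0.680 to 0.750) and RFX2 at 0.656 (0.606 to 0.709). The last 2 are the RFX factors that bind ciliary promoters. TP73, an activator upstream of FOXJ1, was at 0.604 (0.478 to 0.762), and GMNC, which starts the multiciliated fate, at 0.671 (0.537 to 0.838). On the other side, E2F4 was at 1.44 (1.28 to 1.61), CCDC78 at 1.28 (1.18 to 1.39) and CDC20B, the host gene of miR-449, at 1.41 (1.10 to 1.82). CCNO, with 43 counts in the H2S library against 24 in the control library, was at 1.68 (0.997 to 2.89). In this list of 22 measured genes 14 lay below 1 (63.6%, against 50.1% of all measured genes) and the median log2 ratio was -0.20. By at least 1.2-fold, 8 were lower (36.4%, against 23.6%) and 5 were higher (22.7%, against 24.5%). E2F4 also works in the cell cycle of other cell types. For every gene of this list, lower or higher, bulk tissue does not tell which cells the counts came from.

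**Figure D4:**
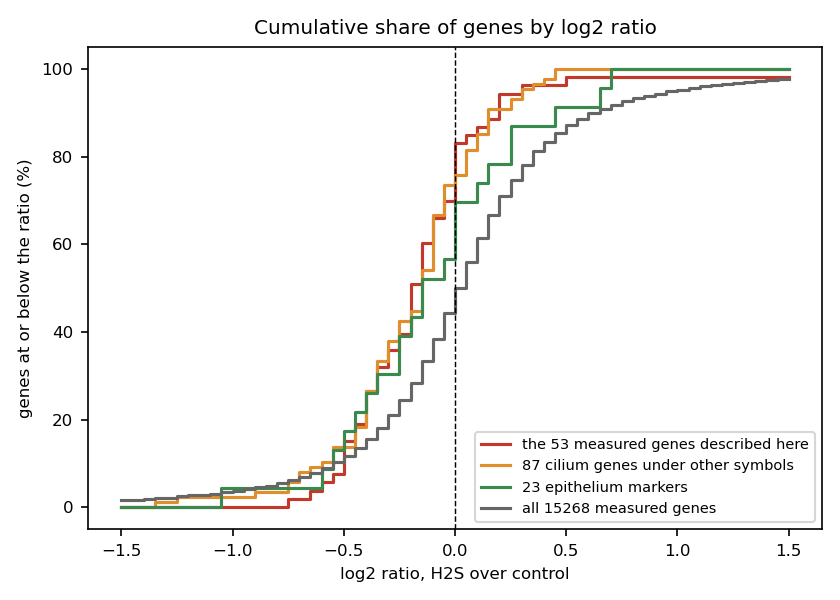
Each line gives the percent of a gene set at or below a log2 ratio, H2S over control, in steps of 0.05. The members and the cilium genes under other symbols run left of all measured genes around 0, with medians of -0.20 and -0.18 beside -0.00066. The 23 epithelium markers, with a median of -0.16, run between around 0 but not throughout. At a log2 ratio of -0.5 they stand at 17.4%, against 15.1% of members and 13.8% of the other cilium genes.

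Markers of some other cell types also differed between the libraries. Shares below 1 were 50.1% over all measured genes, 69.6% for epithelium, 46.7% for basal and squamous, 57.1% for secretory and 75% for leukocyte markers. They were 0% for cartilage and 8.33% for striated muscle markers. The basal and squamous and the secretory shares lay near that of all measured genes. Epithelium markers had 16 of 23 below 1 and a median log2 ratio of -0.16, with EPCAM at 0.819 (0.793 to 0.845) and, among well-counted genes, EHF lowest at 0.643 and CLDN1 highest at 1.60. Their summed level was 2638 CPM in the H2S library against 2601 CPM in the control library. This sum leaned on CLDN1, which alone had 632 CPM in the H2S library against 396 CPM in the control library. Basal and squamous markers went both ways, with 7 of 15 below 1, from TP63 at 0.490 to KRT14 at 2.29, and a summed level of 877 CPM in the H2S library against 1085 CPM in the control library. Secretory markers had 8 of 14 below 1 and 6 above, from CFTR at 0.595 to FCGBP at 3.15 among well-counted genes. They summed to 2433 CPM in the H2S and 3099 CPM in the control library. Most of this gap came from PIGR, at 1049 CPM in the H2S library against 1700 CPM in the control library. Leukocyte markers had 12 of 16 below 1, from CD8A at 0.636 to CD79B at 1.60, and summed to 1820 and 2311 CPM, H2S library first. Cartilage markers were higher in the H2S library in 13 of 13 cases, from COL9A1 at 1.11 to EPYC at 2.75, and summed to 26527 CPM in the H2S and 20923 CPM in the control library. Striated muscle markers were above 1 in 22 of 24 cases, from MYH1B at 0.949 to MYH1A at 3.49, with sums of 28879 CPM in the H2S and 20323 CPM in the control library. The part of these marker differences in the lower ciliary values was not tested.

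miR-34 and miR-449 are the miRNA families of multiciliated cells, where in frog they lower the centriole protein CCP110 and so let basal bodies dock. They are shown here because they are the ciliary readout with 3 libraries in each group. Here too, exposure and any other difference between the chambers cannot be told apart. All of their guide arms but miR-34b-5p share the target-pairing seed, bases 2 to 8 from the 5′ end. These bases are in capitals below, in the DNA letters of the deposited table.
miR-34a-5p: tGGCAGTGtcttagctggttgtt
miR-34c-5p: aGGCAGTGtagttagctgattgc
miR-449a: tGGCAGTGtatgttagctggt
miR-449b-5p: aGGCAGTGtgctgttagcggctg
miR-449c-5p: tGGCAGTGcgtgttagctggctgt
miR-34b-5p: cAGGCAGTgtagttagctgattg
The first 5 have the seed GGCAGTG, and in miR-34b-5p the same 7 bases start at base 3, so that its seed is AGGCAGT.

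None of the 10 measured arms passed the test between H2S and control libraries (edgeR quasi-likelihood test, Benjamini-Hochberg over 378 miRNAs, threshold 0.05). In that test 1 miRNA was higher (0.265%) and 0 were lower, and 67 of the 378 had an unadjusted p under 0.05. DESeq2 called 9 higher and 12 lower, and limma-voom called 1 higher and 0 lower, none of them a miR-34 or miR-449 arm. miR-34b-5p had 10682, 14808 and 8497 TMM-scaled CPM in the H2S libraries and 6465, 7589 and 6574 CPM in the control libraries, without overlap. Its log2 fold change was 0.72 (SE 0.23, edgeR adjusted p = 0.180). miR-34c-5p, cut from the same transcript, had 5688, 7680 and 4404 CPM in the H2S libraries and 3692, 4044 and 3654 CPM in controls. Its log2 fold change was 0.64 (edgeR adjusted p = 0.227). The sequences of miR-34b-5p and miR-34c-5p are the same apart from their end bases. How reads were divided between them is not given in the sources used here, so they may not be separate readouts. miR-34a-5p, made from another locus and best known from the p53 response, averaged 38.5 ± 5.5 CPM across H2S libraries, against 28.6 ± 4.1 CPM across controls (SD, n = 3 each), a log2 difference of 0.42 (edgeR adjusted p = 0.358). Leaving out H2S library 2 gave 0.48 for miR-34b-5p and 0.41 for miR-34c-5p. After TMM scaling these 3 arms did not overlap between the groups, a property that 25.7% of the 378 miRNAs shared. The separation depended on this scaling, and as shares of total counts all 3 arms overlapped. miR-34b-5p, for example, had 168535 of 20798180 counts in H2S library 3, against 136207 of 15288018 in control library 2. The TMM factors were 0.96, 0.83 and 0.95 for the H2S libraries and 1.11, 1.17 and 1.02 for the control libraries.

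The miR-449 arms had log2 fold changes below 0, and in none did the groups separate after TMM scaling. As shares of total counts, miR-449b-5p did separate, with lower shares in the H2S libraries. Without H2S library 1 miR-449a was at 0.029 and miR-449b-3p at 0.29, and without control library 1 miR-449b-3p was at 0.41, so the direction of both changed when 1 library was left out. miR-449a had 253, 508 and 486 CPM in the H2S libraries and 633, 288 and 537 CPM in the controls (a log2 difference of -0.22, edgeR adjusted p = 0.794), with library 1 lowest among H2S and library 2 lowest among controls. miR-449b-5p averaged 12.8 ± 1.4 CPM across H2S libraries, against 18.8 ± 7.1 CPM across controls (SD, n = 3 each, log2 difference -0.55, edgeR adjusted p = 0.439). miR-449c-5p averaged 5.50 ± 1.61 CPM across H2S libraries, against 7.59 ± 2.91 CPM across controls (SD, n = 3 each, log2 difference -0.46, edgeR adjusted p = 0.566). Of their passenger arms, miR-449c-3p had a log2 fold change of -0.92 (edgeR adjusted p = 0.338) and miR-449b-3p one of -0.18 (edgeR adjusted p = 0.922). miR-34b-3p and miR-34c-3p stood at 0.12 and -0.01 (edgeR adjusted p = 0.862 and 0.977), and miR-34a-3p, with 2 to 6 counts in each library, was not tested. Whether the miR-34 and miR-449 families differ from each other was not tested. CCP110 itself had 2849 counts in the H2S mRNA library and 3284 in the control mRNA library, a ratio of 0.814 (0.774 to 0.856). An interval wholly below 1 was found for 27.7% of all measured genes. Any link between these miRNAs and the CCP110 value was not tested.

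**Figure D5:**
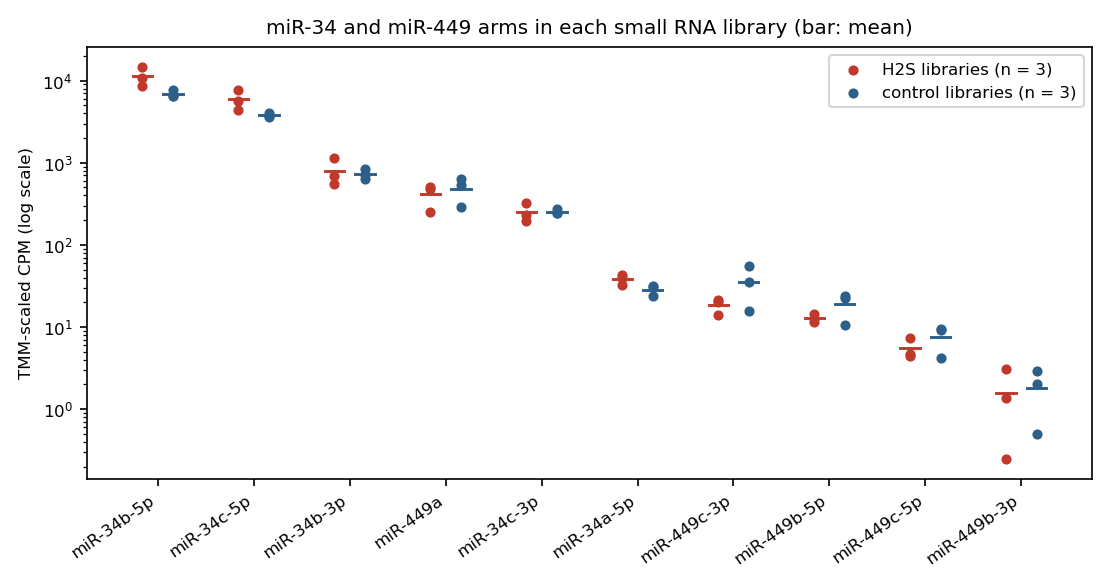
Points give the TMM-scaled CPM of each tested arm on a log axis in the 3 H2S libraries (left) and the 3 control libraries (right), and bars give the group means. The H2S points lie above all control points for miR-34b-5p, miR-34c-5p and miR-34a-5p, and the groups overlap for the other arms. As shares of total counts, miR-34b-5p, miR-34c-5p and miR-34a-5p overlap too.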

How the data were processed

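Per the labels, total RNA was extracted from trachea with Trizol. The deposited tables give raw counts per gene (2 mRNA libraries) and per mature miRNA (6 small RNA libraries). The submitters' processing notes name HISAT2 for mRNA and BWA for small RNA. For versions, genome build, annotation, counting tool and strandedness, the sources used here give nothing, so a gene and its overlapping or antisense neighbour may share reads, and no coordinates are printed. 53 of the 57 symbols match the RefSeq table of GRCg7b, used for names only.

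From the deposited counts, mRNA ratios were computed with TMM effective library sizes (edgeR 4.0.16, R 4.3.3) and exact Clopper-Pearson intervals at 95% (SciPy 1.17.1). The ratio step was checked on simulated counts with counting error only, so that check does not bear on variation between libraries. The miRNA test was checked on simulated counts with spread between libraries. miRNA counts were tested with edgeR's quasi-likelihood test after TMM and filterByExpr, over 15239214 to 22718151 counts per library. The p-values reflect only how these samples vary, which may be technical. DESeq2 1.42.0, limma-voom (limma 3.58.1), other scalings, count minimums and left-out libraries were tried. The members, classes, gene lists and tests were chosen with earlier results of these data known. The rule gave full values to the extreme ratios of each class with at least 100 counts, to members at least 1.5-fold apart and to every miR-34 and miR-449 arm, and to the extremes of each list. Other genes were named after their values were seen. Levels per coding length and promoter motifs, both planned, were not computed because protein and promoter sequences were not used here.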

Additional observations from a re-analysis of the deposited data

How the results depend on the processing

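The median log2 ratio of the members stayed below 0 in every alternative run (-0.25 with total counts to -0.19 with upper-quartile scaling), with 42 to 47 members below 1. These runs counted different numbers of genes. DESeq2 size factors and upper-quartile scaling gave 42 of 53, and a minimum of 100 counts gave 42 of 48. The 47 came without a count minimum, which lets in thinly counted genes. Scaling by total counts shifts every log2 ratio by -0.05. It gave summed ratios of 0.819 for all members, 0.881 for outer arm heavy chains, 0.703 for inner arm heavy chains, 0.886 for IFT-B and 0.783 for spokes and central apparatus. With a minimum of 100 counts, 1 member was at least 1.2-fold higher, and without SPAG4, SPAG5 and SPAG9 the summed ratio was 0.837. Chosen after seeing the data, leaving out each class's most counted member gave 0.707 for outer arm heavy chains, 0.760 for inner arm heavy chains, 0.834 for IFT-A, 0.858 for spokes and central apparatus, 0.829 for tektins and 0.782 for other SPAG genes. No leave-one-out or paired fit of the mRNA libraries was possible because each group has 1.

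For miRNAs, DESeq2 called 9 higher and 12 lower, total counts called 2 lower, and leaving out 1 library called 0 to 1 lower. No miR-34 or miR-449 arm passed in any alternative; miR-34b-5p ranged from 0.43 to 0.89 (adjusted p = 0.0595 with DESeq2 to 0.417). Total counts put miR-34b-3p at -0.18 and upper-quartile scaling put it at -0.046. Leaving out 1 library gave log2 fold changes of -0.23 to 0.33 for miR-34b-3p, -0.25 to 0.14 for miR-34c-3p, -0.46 to 0.029 for miR-449a and -1.11 to 0.41 for miR-449b-3p. It moved others by over 1.5 times without a change of sign: miR-34b-5p was at 0.48 and miR-34c-5p at 0.41 without H2S library 2, miR-449c-3p at -0.48 without control library 1, and miR-449c-5p at -0.73 without H2S library 2 or control library 2 and at -0.27 without control library 3. Total counts put miR-34a-5p at 0.16, miR-34c-5p at 0.35, miR-449a at -0.49 and miR-449c-5p at -0.73. Same-numbered H2S and control libraries deviated together with correlations of -0.31, 0.08 and 0.27, so the numbers were not taken to pair them. With the replicate block, 1 miRNA was higher and 0 lower, with log2 fold changes of 0.69 for miR-34b-5p (edgeR adjusted p = 0.263) and 0.61 for miR-34c-5p (edgeR adjusted p = 0.305). The cause of these changes was not tested. With 3 libraries per group, modest changes can be missed.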

Other observations

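The ratio of the 5p to the 3p arm of miR-34b and miR-34c, which needs no scaling between libraries, separated the groups. For miR-34b it was 15.6, 13.0 and 15.3 in H2S libraries and 9.16, 9.14 and 10.2 in control libraries. For miR-34c it was 24.9, 23.4 and 22.5 in H2S libraries and 15.2, 14.9 and 14.9 in control libraries. The exact two-sided permutation p was 0.1 for each, the smallest that 3 against 3 libraries allow. Because miR-34b-5p and miR-34c-5p differ only in their end bases, the ratios of miR-34b and miR-34c may share reads. For miR-449c the ratio was 0.335, 0.342 and 0.221 in H2S libraries and 0.167, 0.272 and 0.266 in control libraries, which overlap (exact two-sided permutation p = 0.3). Of the 52 miRNAs with at least 20 counts of both arms in every library, 11 had such a ratio higher in H2S libraries without overlap (21.2%) and 11 lower without overlap (21.2%). Counting miR-34b itself, 12 had a log2 change at least as large in either direction, 7 of them toward a higher ratio in H2S libraries. The separation is therefore a property that many miRNAs of these libraries have. This comparison was made after the values were seen.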
